A study of Bos taurus with 9 samples.

Results

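The genes of sterol synthesis and fatty acid metabolism were examined in single bovine blastocysts with and without *TEAD4*. The list names 40 genes, chosen by symbol for their roles in making, storing, taking up and burning lipid, out of 21512 genes in the table. Of the 40, 39 were analysed, *DGAT2* is not analysed here, and 38 passed the filter for testing, a median above 0.1 TPM (transcripts scaled to the same total in every library) over all libraries. The remaining gene, *SLC27A2*, lay below that filter and its values are given with the uptake genes.

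The study removed TEAD4, a transcription factor of the Hippo pathway, from bovine embryos by CRISPR/Cas9 and sequenced RNA from whole day 8 (D8) blastocysts produced *in vitro*. There were 9 libraries, each from 1 embryo: 5 wild type (WT) and 4 *TEAD4* -/- (KO). Oocytes had been injected around fertilization with Cas9 mRNA and a guide RNA, or with Cas9 alone as the control, and the study's methods class the embryos of the Cas9 control as WT. The embryos were cultured in oviduct fluid medium with serum, itself a source of lipid, and KO embryos carried only frame-disrupting alleles, which may differ from embryo to embryo, and trophectoderm and inner cell mass were not separated. Embryos are called WT1 to WT5 and KO1 to KO4 below, in the order of the table's columns, and the numbers do not pair them. TPM corrects for transcript length, so levels of different genes can be set beside each other, but it keeps no read counts, and the study gives its read depth as a range over samples and not for each library.

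Cells build cholesterol from acetyl-CoA through mevalonate, isoprenoids and squalene, and the genes of this route are switched on together by the transcription factor SREBP2 when sterol in the endoplasmic reticulum is low. The related factor SREBP1 acts mainly on fatty acid synthesis, whose products are elongated, desaturated, stored as triglyceride in droplets or broken down by β-oxidation in mitochondria. Bovine oocytes and early embryos are known for abundant lipid droplets, and embryos cultured with serum often hold more of them.

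*TEAD4* itself was measured at 18.0, 52.5, 54.3, 36.5 and 43.4 TPM in WT1 to WT5 and at 42.8, 41.8, 12.5 and 22.2 TPM in KO1 to KO4. The genotypes overlapped, with KO1, KO2 and KO4 inside the WT values and KO3 below them. The difference of mean log2(TPM + 1), KO minus WT, was −0.51 (SE 0.42, adjusted p = 0.947). It was −0.77 to −0.16 with 1 embryo left out, the ends being without WT1 and without KO3. A gene with small insertions or deletions can still give transcripts that are counted, and whether any were degraded was not tested. This value therefore neither checks nor contradicts the genotype, which the study read from the DNA of each embryo. Unless stated otherwise, each log2 fold change below is that same difference on the log2(TPM + 1) scale, which understates changes of low genes, and each adjusted p comes from limma over all 14599 genes tested.

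Over all genes tested, 3 were called, with an adjusted p below 0.05 and a log2 fold change beyond 1 in either direction, or 0.0205% of them. They were *H2AC18* and *H2BC5*, which were higher in KO, and *ENSBTAG00000033523*, which was lower, named here after their values were seen. None of the 38 tested members was called by limma, and at an unadjusted p under 0.05 there were 4 members with lower values in KO, against 3.83% of all genes, and 0 with higher values, against 2.07%. The 4 were *FADS1*, *HMGCS1*, *SC5D* and *IDI1*. For no tested member did every KO embryo lie below every WT embryo, which held for 1.23% of all genes, or above, which held for 0.801%. The mean was lower in KO for 27 of 38 members and for 55.8% of all genes. With median-of-ratios scaling these were 27 of 38 and 50.8%, and with quantile normalization 26 of 38 and 47.8%. Lower and higher means here are those of log2(TPM + 1), and for *PLIN2*, *FABP3* and *CD36* the means of TPM itself differed in the other direction. The members' median log2 fold change was −0.23, beside −0.05 over all genes tested. Adjusted p-values of the members ran from 0.585 to 0.996, so none of the differences below passed correction. A p that misses the threshold does not show that the genotypes were alike, and the intervals in the plot by role were wide.

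**Figure D1:**
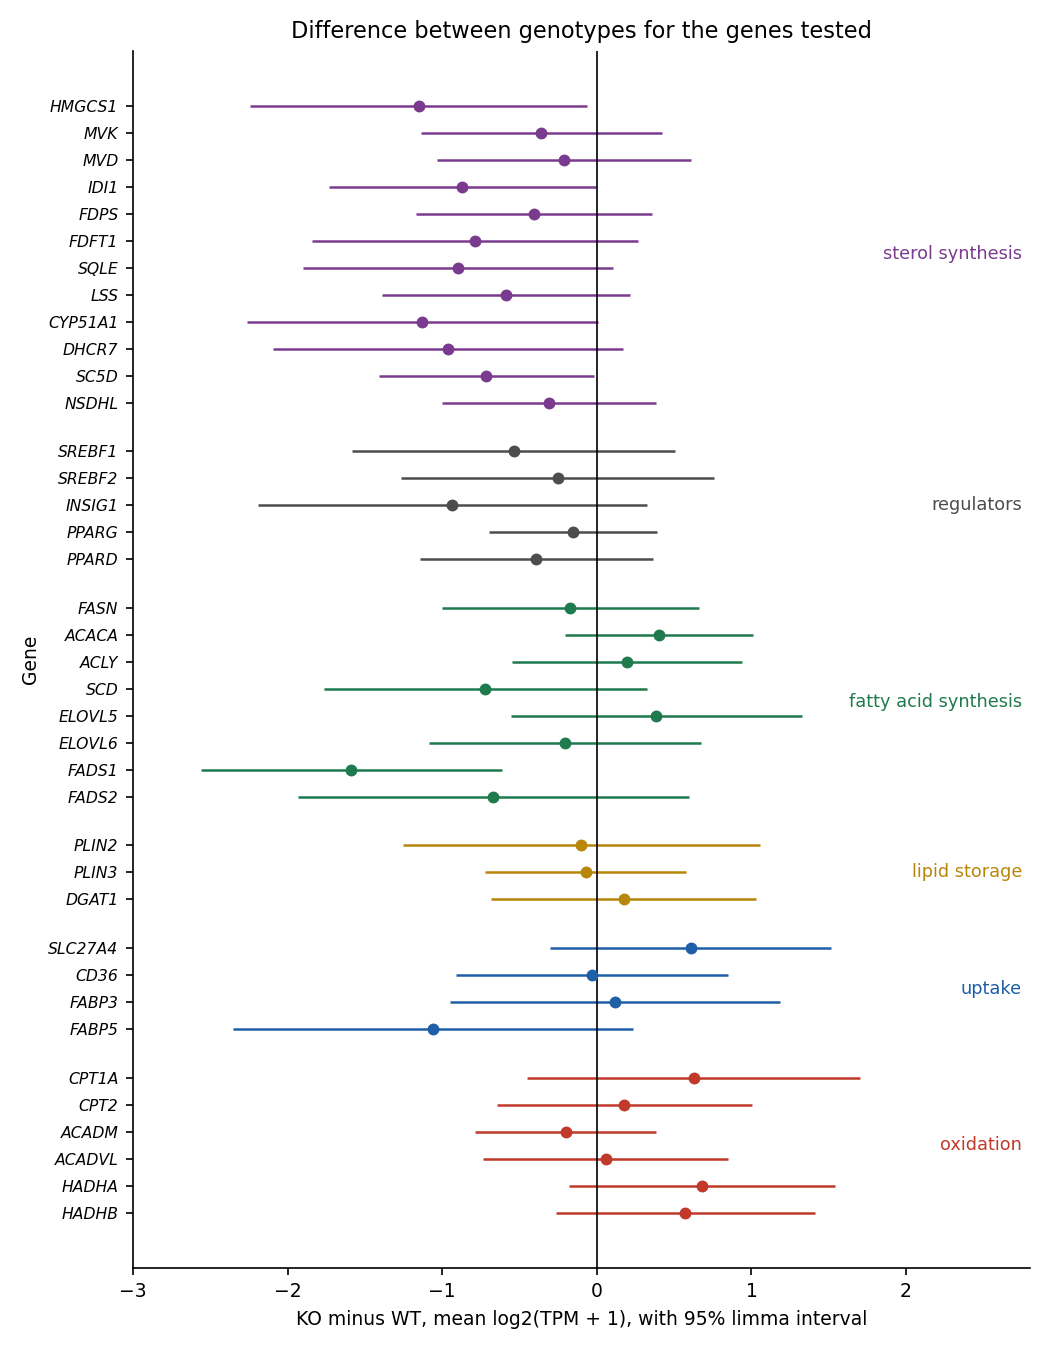
Difference between KO and WT means of log2(TPM + 1) for each of the 38 members tested (points) with its 95% interval from limma (lines), grouped by role. All 12 sterol synthesis genes lie left of 0, and 5 of 6 oxidation genes lie right of it.

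WT5 and KO3 stood apart from the other embryos in the sterol genes. WT5 held the highest value of all 9 embryos in 11 of 12 sterol synthesis genes, although it was highest in 4.73% of all genes tested. KO3 held the lowest value in 8 of 12, against 12.9% of all genes. After division by median-of-ratios size factors these counts were again 11 and 8. Leaving out both was an alternative chosen after seeing the data, and values without them are given for the sterol role and for some genes. KO2 was the highest embryo in 23.3% of all genes and KO1 the lowest in 26.6%, and their size factors were 1.26 and 0.776, the highest and lowest of the 9.

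Sterol synthesis was represented by 12 genes, all tested, and the mean of each was lower in KO than in WT under every scaling used. The median log2 fold change was −0.75. Summed over the 12 genes, transcripts came to 620.1, 634, 786, 636 and 1537 TPM in WT1 to WT5 and to 723, 623, 315 and 404 TPM in KO1 to KO4. The genotypes overlapped: KO1 and KO2 were within the WT values, KO3 and KO4 were below all of them, and WT5 was far above the next embryo, WT3. The means were 843 ± 394 TPM (SD, n = 5) and 516 ± 189 TPM (SD, n = 4).

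**Figure D2:**
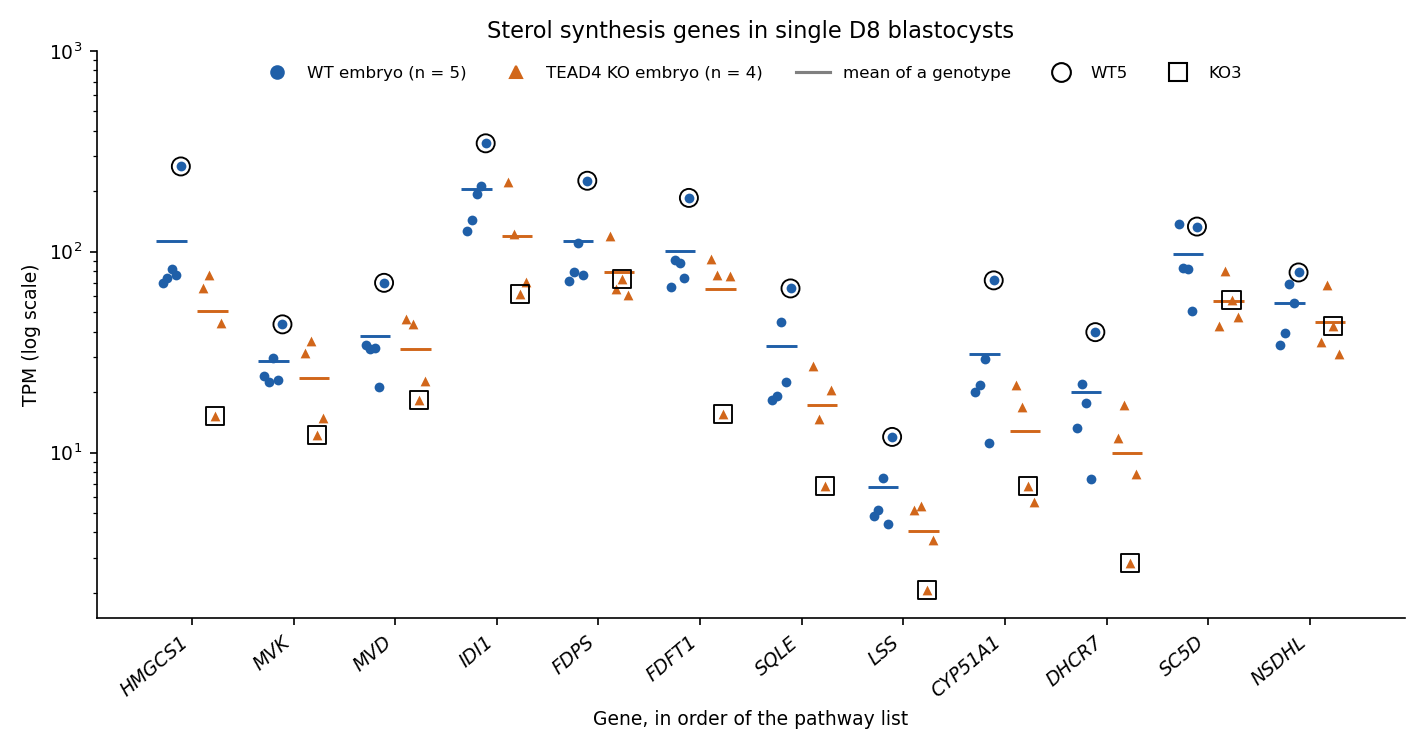
TPM of the 12 sterol synthesis genes on a log axis in each WT (circles, n = 5) and KO (triangles, n = 4) embryo, with the mean of each genotype as a line. WT5 (ringed) is the highest embryo in 11 of 12 genes and KO3 (boxed) the lowest in 8 of 12.

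*HMGCS1* makes the HMG-CoA that feeds the mevalonate route, and it had the largest log2 fold change of the 12 members of this role. It stood at 70.1, 74.0, 81.6, 76.2 and 266 TPM in WT1 to WT5 and at 66.1, 76.2, 15.1 and 44.3 TPM in KO1 to KO4. Its log2 fold change was −1.15 (SE 0.50, 95% interval −2.24 to −0.06, adjusted p = 0.818), and an exact two-sided permutation test of this gene alone gave an unadjusted p of 0.0476. WT1 to WT4 lay close together, KO2 equalled WT4 within rounding, and the distance between the means came from WT5 at the top and from KO3 and KO4 below. Without WT5 the log2 fold change was −0.79, without KO3 it was −0.67 and without both it was −0.31.

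*IDI1*, whose enzyme interconverts the isoprenoid building units, was the most abundant of the 12 by mean TPM. Its values were 126.1, 144, 194, 213 and 346 TPM in WT1 to WT5 and 223, 123, 61.6 and 70.7 TPM in KO1 to KO4, a log2 fold change of −0.87 (SE 0.40, adjusted p = 0.836, unadjusted exact permutation p = 0.127). KO3 and KO4 were below all WT embryos and KO2 was just below WT1, whereas KO1 exceeded every WT embryo except WT5. The value was −0.66 without WT5, −0.62 without KO3 and −0.41 without both.

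*SC5D*, the desaturase of a late step, was the 1 gene of the 12 in which WT5 was not the highest embryo. It was measured at 137, 82.9, 81.5, 50.8 and 133 TPM in WT1 to WT5 and at 42.7, 79.9, 57.5 and 47.2 TPM in KO1 to KO4. The log2 fold change was −0.71 (SE 0.32, adjusted p = 0.836, unadjusted exact permutation p = 0.0794), with KO1 and KO4 below every WT embryo and KO2 and KO3 above WT4. Leaving out single embryos moved it between −0.92 and −0.57.

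Among the other 9 sterol genes, log2 fold changes, each with its range over leaving out 1 embryo in parentheses, ran from −1.13 (−1.43 to −0.76) for *CYP51A1*, the demethylase of lanosterol, to −0.21 (−0.41 to 0.03) for *MVD*, a decarboxylase of the mevalonate steps. The farnesyl and squalene enzymes gave −0.40 (−0.61 to −0.12) for *FDPS*, −0.79 (−1.04 to −0.21) for *FDFT1* and −0.90 (−1.15 to −0.54) for *SQLE*, and the later steps −0.59 (−0.72 to −0.36) for *LSS*, −0.31 (−0.54 to −0.16) for *NSDHL* and −0.96 (−1.28 to −0.53) for *DHCR7*. *MVK*, the mevalonate kinase, gave −0.36 (−0.60 to −0.10). Without WT5 and KO3 together *MVK*, *MVD* and *FDFT1* had higher means in KO, at 0.05, 0.26 and 0.03. Levels covered a wide span, from a WT mean of 6.76 TPM for *LSS* to 113 TPM for *FDPS*. In each of these 9 genes at least 1 KO embryo exceeded at least 1 WT embryo.

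The sterol result rested largely on 2 embryos. Its median log2 fold change was −0.56 without WT5, with 11 of 12 genes lower in KO, and −0.46 without KO3, also with 11 of 12. Without both it was −0.21, with 9 of 12 lower, and without KO4 it was −0.66. No sterol gene had an unadjusted p under 0.05 once WT5, KO3 or KO4 alone was left out, or WT5 and KO3 together. KO4 remained low: the median deviation of the sterol genes from their mean over the 9 embryos was −0.61 in KO4 and −1.11 in KO3, against 0.28 in KO1 and 0.10 in KO2. In WT1 to WT5 it was −0.05, 0.00, 0.35, −0.14 and 1.28. RNA of a whole embryo cannot tell fewer cells of a type from less RNA per cell, for these genes or any other.

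Markers of the embryo's cell types were set beside these values. The 7 trophectoderm markers summed to 19908, 15362, 8162, 4457 and 15988 TPM in WT1 to WT5 and to 10200.1, 12939, 8929.7 and 6829 TPM in KO1 to KO4, with *KRT8* the most abundant. The 5 markers of epiblast and inner cell mass, led by *POU5F1*, summed to 853, 1097, 1919, 2561 and 1303 TPM in WT and to 1659.5, 2325, 1422 and 2289.9 TPM in KO. Both lists were present in every embryo and both overlapped between genotypes. In KO3, the embryo with the lowest sterol values, *SOX2* at 2.26 TPM and *SPIC* at 26.0 TPM were the lowest of the 9 embryos and *NANOG* was at 3.55 TPM, whereas *KLF4* at 38.5 TPM and *POU5F1* at 1352 TPM were inside the values of the other embryos. WT5 was inside the range of the other WT embryos for both summed lists, but not for the hypoblast markers.

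The 5 hypoblast markers, of which *GATA6* was the most abundant, summed to 81.6, 99.8, 123, 120.2 and 152 TPM in WT1 to WT5 and to 45.4, 152, 55.8 and 83.2 TPM in KO1 to KO4. Most of the KO2 sum was *GATA6*, at 146 TPM, and its *SOX17*, at 1.91 TPM, was the lowest of the 9 embryos. The median deviation of the markers was −1.26, 0.23, 0.73, 0.57 and 1.05 in WT1 to WT5. In KO1 to KO4 it was −0.34, −0.50, −0.63 and −0.32. All 5 markers had lower means in KO. WT5 had the highest sum of the WT embryos, and its *SOX17*, at 38.1 TPM, exceeded that of every other embryo, the next being WT3 at 12.9 TPM. *GATA4* was the 1 marker without overlap, at 1.43, 1.75, 1.09, 1.31 and 1.74 TPM in WT and 0.367, 0.600, 0.957 and 0.638 TPM in KO (log2 fold change −0.59, SE 0.20, adjusted p = 0.684). *HNF4A* was listed at 0 in WT1 and KO3.

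The study's methods describe stripping cumulus cells from the oocytes and attached sperm from the zygotes, and markers of both were also examined. Of 10 markers of cumulus and granulosa cells, which surround the oocyte, 6 passed the filter, 4 with lower and 2 with higher means in KO, and the sums over the 10 were 266, 128, 77.1, 139 and 173 TPM in WT and 57.6, 38.0, 128 and 8.95 TPM in KO. The most abundant was *CYP11A1*, the enzyme that opens steroid synthesis from cholesterol, at 247, 90.9, 52.7, 116 and 139 TPM in WT1 to WT5 and 26.7, 7.22, 96.7 and 4.57 TPM in KO1 to KO4. KO3 exceeded WT2 and WT3, and the other KO embryos were below all WT embryos (log2 fold change −2.61, SE 0.73, adjusted p = 0.566). Most of the sum in WT was this gene. *CYP19A1* (0.33) and *AMH* (0.52) had higher means in KO, and *FSHR* was at a mean of 17.5 TPM in WT and 17.1 TPM in KO. The cumulus markers *HAS2*, *PTX3* and *GREM1* were at most 0.520 TPM in any embryo. *TNFAIP6*, which passed the filter, was at 0, 0.135, 0.575, 2.08 and 1.79 TPM in WT1 to WT5. In KO1 to KO4 it was at 0, 0, 0 and 0.290 TPM (log2 fold change −0.70, adjusted p = 0.836). *STAR* gave −0.71 (adjusted p = 0.891). The 4 sperm markers summed to 1.66, 3.23, 23.9, 121 and 2.88 TPM in WT and 7.62, 0.779, 74.9 and 6.24 TPM in KO, where *PRM1* reached 73.1 TPM in KO3, *TNP1* was the most abundant in WT4 at 75.1 TPM and *ODF1* was listed at 0 throughout. The part of any of these cell types in the lipid results was not tested.

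The regulators were low in abundance and all 5 had lower means in KO, with a median log2 fold change of −0.39. *INSIG1*, which retains SREBP in the endoplasmic reticulum and is itself induced by it, was the most abundant and had the largest difference of the 5. Its values were 3.86, 12.0, 23.1, 8.93 and 47.9 TPM in WT1 to WT5 and 10.6, 6.60, 7.76 and 3.80 TPM in KO1 to KO4. WT5 was highest again, KO1, KO2 and KO3 lay above WT1, and KO4 was just below it (log2 fold change −0.93, SE 0.58, adjusted p = 0.905). The difference was −0.51 without WT5.

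The genes for the SREBP proteins differed less. *SREBF1* was at 5.28, 9.54, 9.06, 1.82 and 12.9 TPM in WT1 to WT5 and at 2.51, 7.01, 5.90 and 2.96 TPM in KO1 to KO4 (log2 fold change −0.54, −0.90 to −0.32 with 1 embryo left out, adjusted p = 0.956). *SREBF2* was at 2.38, 6.38, 6.44, 2.83 and 11.9 TPM and 8.74, 2.59, 2.54 and 4.91 TPM in the same order (−0.25, adjusted p = 0.982). Both were highest in WT5, and both overlapped widely: the lowest embryo was WT4 for *SREBF1* and WT1 for *SREBF2*. The sign for *SREBF2* turned to 0.01 without WT5.

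The nuclear receptors that respond to fatty acids differed in level. *PPARD* was at 3.85, 5.89, 6.17, 5.11 and 3.17 TPM in WT1 to WT5 and at 2.74, 3.95, 5.99 and 1.80 TPM in KO1 to KO4 (−0.39, −0.62 to −0.18 with 1 embryo left out, adjusted p = 0.956). *PPARG* was near the limit of the filter, at 0.844, 0.435, 0.591, 0.228 and 0.262 TPM in WT and 0, 0.271, 1.29 and 0 TPM in KO, with KO1 and KO4 listed at 0 and KO3 the highest embryo (−0.16, adjusted p = 0.982). Without KO3 it was −0.43 with an unadjusted p under 0.05, without KO1 −0.03, and with a pseudocount of 0.1 TPM −0.98. *PPARD* was more abundant than *PPARG* in each of the 9 embryos.

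Fatty acid synthesis, with 8 genes, did not share 1 direction: 5 had lower and 3 had higher means in KO, and the median log2 fold change was −0.19, or 0.05 without WT5. The largest difference among all members was that of *FADS1*, the delta-5 desaturase that forms arachidonic acid. *FADS1* was measured at 46.3, 71.1, 37.6, 13.4 and 85.2 TPM in WT1 to WT5 and at 12.4, 14.2, 12.2 and 15.9 TPM in KO1 to KO4. The 4 KO embryos lay within a narrow span, 4 WT embryos were above it, and WT4 was inside it. The means were 50.7 ± 28.2 TPM (SD, n = 5) and 13.7 ± 1.75 TPM (SD, n = 4).

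The log2 fold change of *FADS1* was −1.59 (SE 0.45, 95% interval −2.56 to −0.61), with an adjusted p of 0.585 and an unadjusted p of 0.0476 in an exact two-sided permutation test. It kept its sign without any 1 embryo, at −1.99 to −1.34. Its adjusted p was 0.0874 without WT4, the lowest over the alternatives, and 0.999 without WT5, the highest. WT4 also had the lowest trophectoderm sum of the 9 embryos and the highest sum of epiblast and inner cell mass markers. KO4 was next lowest in the trophectoderm sum, and by median deviation of those markers it was the lowest, at −0.99 against −0.93 in WT4. KO4 had the highest *FADS1* of the KO embryos, and the relation was not tested.

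*FADS2*, the delta-6 desaturase that acts before FADS1, lies on the same chromosome, 29 in the RefSeq annotation of ARS-UCD2.0. It was at 20.2, 55.9, 11.4, 10.3 and 47.2 TPM in WT1 to WT5 and at 41.4, 10.2, 8.77 and 10.3 TPM in KO1 to KO4 (log2 fold change −0.67, SE 0.58, adjusted p = 0.954). It was −1.16 without KO1 and −0.36 without WT2. KO1 was among the high embryos for *FADS2* and among the low ones for *FADS1*, while WT3 was low for *FADS2* alone. *FADS3*, its neighbour, named after its values were seen, was at 508, 711, 192, 78.4 and 589 TPM in WT and 276, 244, 246 and 84.0 TPM in KO (−0.71, −1.21 to −0.31 with 1 embryo left out, adjusted p = 0.953).

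**Figure D3:**
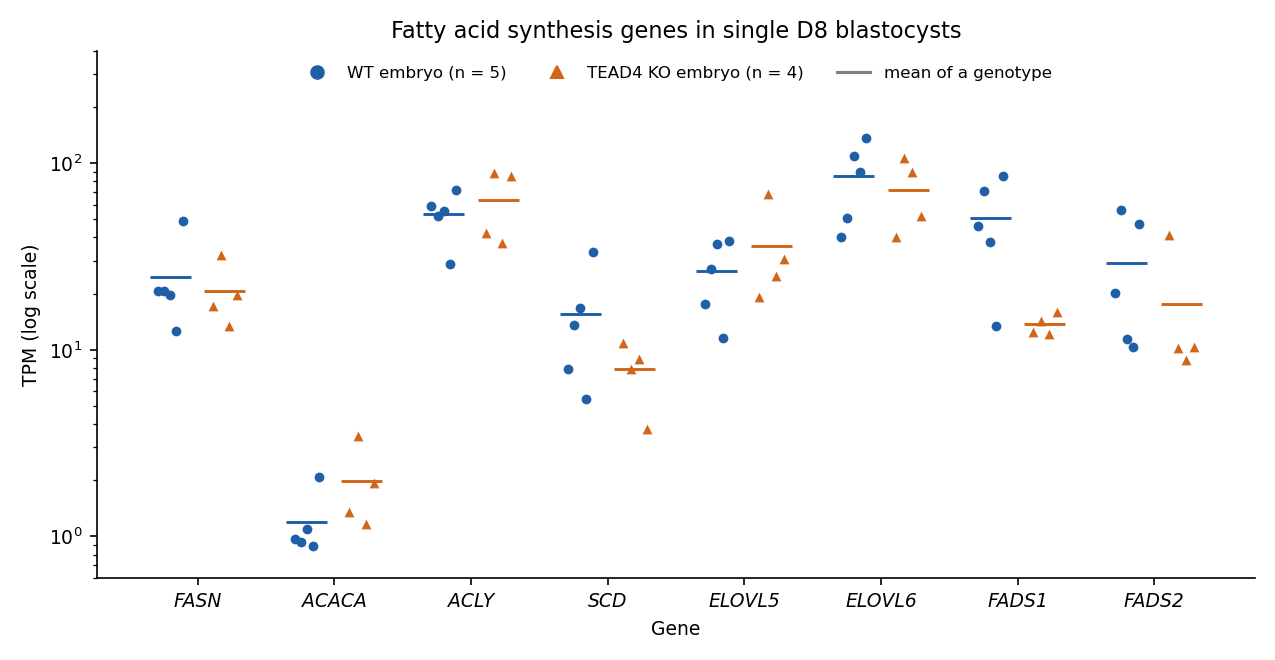
TPM of the 8 fatty acid synthesis genes on a log axis in each WT (circles, n = 5) and KO (triangles, n = 4) embryo, with genotype means as lines. The KO values of *FADS1* sit between 12.2 and 15.9 TPM, with 1 WT embryo among them.

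*ELOVL6*, which elongates palmitate, had the highest mean TPM of these genes. Its values of 40.02, 50.7, 109.7, 89.5 and 136 TPM in WT1 to WT5 and 39.98, 107, 89.4 and 51.9 TPM in KO1 to KO4 overlapped almost fully (log2 fold change −0.20, adjusted p = 0.982). Without KO1 the difference was 0.0378. The stearoyl-CoA desaturase *SCD* gave −0.72 (−0.997 to −0.39) and the fatty acid synthase *FASN* −0.17 (−0.40 to 0.11), both highest in WT5, and *FASN* turned positive without it. *ACLY*, *ACACA* and *ELOVL5*, which supply acetyl-CoA and malonyl-CoA and elongate polyunsaturated chains, had higher means in KO, at 0.19, 0.40 and 0.39. Each was highest in KO2, and without KO2 they were −0.000872, 0.19 and 0.02. *ACACA* was at most 3.47 TPM in any embryo.

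Lipid storage was measured by 3 genes, with a median log2 fold change of −0.07 whose sign changed when any of 6 single embryos was left out. *PLIN3*, a coat protein of lipid droplets and the most abundant of them, was at 205, 257, 189, 127 and 237 TPM in WT1 to WT5 and at 158, 339, 159 and 145 TPM in KO1 to KO4. KO2 was the highest embryo and the other 3 KO embryos were between WT4 and WT3 (log2 fold change −0.07, SE 0.30, adjusted p = 0.992). *DGAT1*, which makes triglyceride, was at 13.2, 22.2, 20.1, 6.08 and 22.1 TPM in WT and 18.0, 22.7, 20.4 and 10.7 TPM in KO (0.17, SE 0.39, adjusted p = 0.984). WT4 was the lowest embryo for both genes, and without it *DGAT1* was −0.13. *PLIN3* turned positive without WT2, KO1, KO3 or KO4, each left out alone. *PLIN2*, the main droplet coat of many cells, gave −0.10, or −0.73 to 0.16 with 1 embryo left out, and ranged from 71.2 TPM in WT2 to 453 TPM in KO4.

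Uptake was represented by 5 genes, of which 4 were tested, with 2 lower and 2 higher in KO. The cytosolic carrier *FABP3* had the highest mean of all members, at 116, 287, 537, 720.4 and 454 TPM in WT1 to WT5 and 485, 361, 204 and 637 TPM in KO1 to KO4 (log2 fold change 0.12, SE 0.49, adjusted p = 0.992). WT1 was the lowest embryo, WT4 the highest, and all KO embryos lay between them. The sign of *FABP3* turned without WT1 (−0.29) and without KO4 (−0.121). The related carrier *FABP5* was at 302, 213, 216, 546 and 398 TPM in WT and 155, 129, 595 and 42.1 TPM in KO. KO1, KO2 and KO4 were below every WT embryo, whereas KO3 was above them all, so that the log2 fold change of −1.06 (SE 0.59, adjusted p = 0.891) was −1.72 without KO3 and −0.46 without KO4.

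The fatty acid transport proteins differed in level. *SLC27A2* was listed at 0.470, 0.361, 0.432, 0.176 and 0.0473 TPM in WT1 to WT5 and at 0 in all 4 KO embryos. All 5 WT embryos thus held a value and no KO embryo did. The median of the 9 values was under 0.1 TPM, so the gene was not among those tested, and with no filter its adjusted p was 0.727 over 18549 genes, of which 1.12% had every KO embryo below every WT embryo. No fold change is given against a group listed at 0, and how many reads such low values rest on is not kept in TPM. *SLC27A4* was more abundant in every embryo, at 8.45, 10.6, 14.0, 3.19 and 15.3 TPM in WT and 18.1, 20.8, 10.5 and 11.3 TPM in KO, where KO1 and KO2 exceeded all WT embryos (0.61, SE 0.42, adjusted p = 0.924). WT4 was its lowest embryo, and without WT4 the difference was 0.29. The scavenger receptor *CD36* did not exceed 2.41 TPM and was listed at 0 in WT1, KO1 and KO3.

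The oxidation genes ran the other way from the sterol genes, with 5 of 6 higher in KO under every scaling and a median log2 fold change of 0.38. Their summed level was 175, 152, 205, 173 and 159 TPM in WT1 to WT5 and 124, 334, 133 and 214 TPM in KO1 to KO4. KO2 and KO4 were above all WT embryos, and KO1 and KO3 were below them all. The KO embryos thus lay on both sides of the WT embryos, which were closer together. Without KO2 the median was 0.02 and 3 of 6 genes were lower in KO, and the median was 0.64 without KO3. KO2 was the highest embryo in 5 of 6 genes, and in 3 of 6 after median-of-ratios scaling.

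*HADHA*, a subunit of the mitochondrial trifunctional protein, had the largest difference of this group. It was at 7.17, 9.67, 7.94, 5.50 and 9.71 TPM in WT1 to WT5 and at 11.1, 25.9, 5.75 and 17.2 TPM in KO1 to KO4, with 3 KO embryos above every WT embryo and KO3 near the bottom of the WT values (log2 fold change 0.68, SE 0.39, adjusted p = 0.897). Without KO3 it was 1.03, and without KO2 0.37. *HADHB*, which encodes the partner subunit and neighbours *HADHA* on chromosome 11, gave 0.57 (0.18 to 0.87), with KO2 and KO4 highest, the range again being that with 1 embryo left out. *ACADM*, the medium-chain dehydrogenase and the most abundant of the 6, was at 94.3, 61.6, 112, 108 and 76.1 TPM in WT and 56.8, 117, 69.4 and 74.5 TPM in KO, and was the 1 gene with a lower mean in KO (−0.20, SE 0.27, −0.40 to −0.06 with 1 embryo left out, adjusted p = 0.982). The carnitine transferases gave 0.63 (0.20 to 0.93) for *CPT1A* and 0.18 (−0.23 to 0.42) for *CPT2*, and the very long-chain dehydrogenase *ACADVL* 0.06 (−0.16 to 0.32), so *CPT2* and *ACADVL* changed sign.

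**Figure D4:**
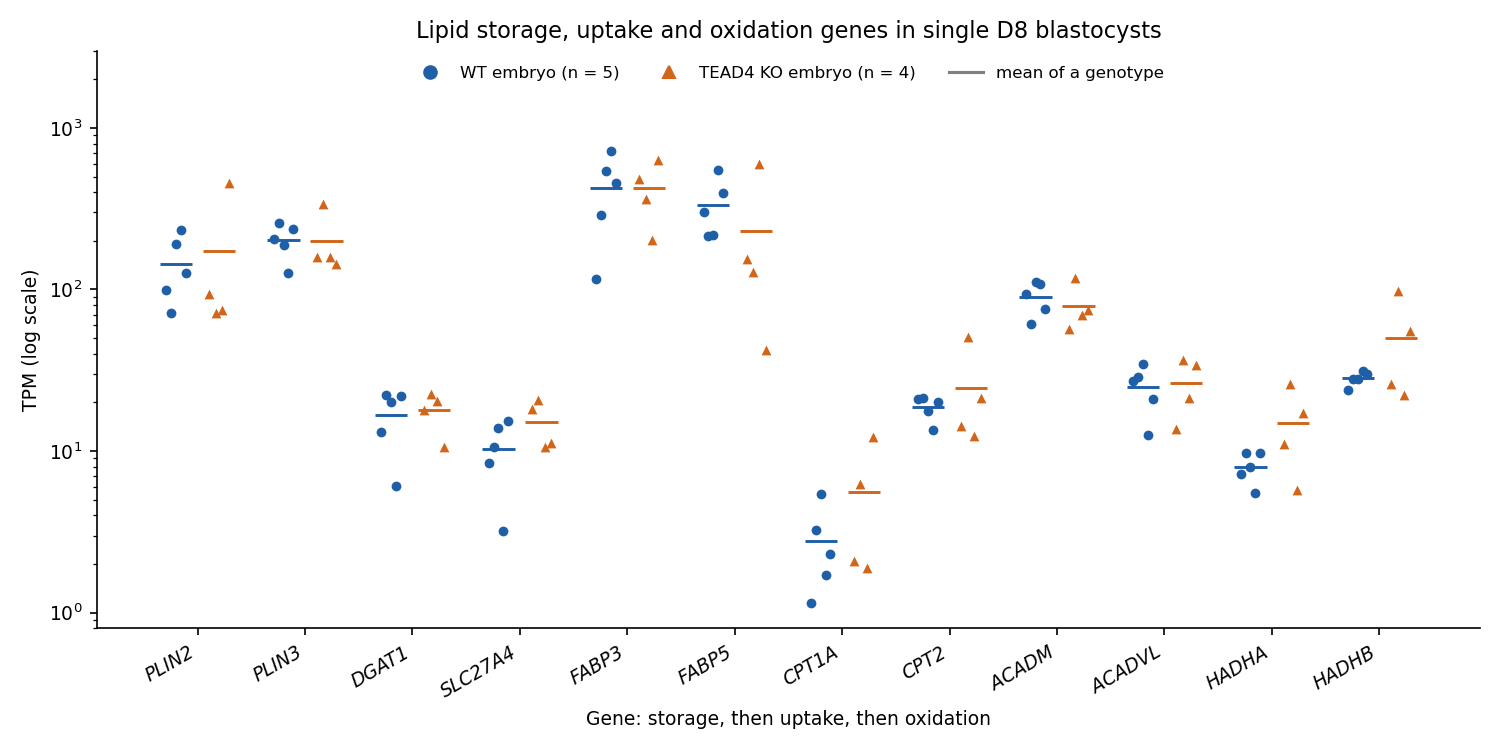
TPM of 12 storage, uptake and oxidation genes on a log axis in each WT (circles, n = 5) and KO (triangles, n = 4) embryo, with genotype means as lines; *CD36* and *SLC27A2*, which hold values of 0, are left out. For *HADHA* 3 KO embryos lie above all WT embryos, and for *FABP5* 3 lie below.

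Set side by side, the roles differed in which embryos were high. WT5 led sterol synthesis, the regulators and fatty acid synthesis, with median deviations of 1.28, 1.10 and 1.04 log2 units, but was at −0.14 for oxidation. KO2 was at 1.03 for oxidation and 0.10 for sterol synthesis. KO3 was lowest for sterol synthesis at −1.11 and close to WT4 for oxidation, at −0.57 and −0.57. In each role the genotypes overlapped.

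**Figure D5:**
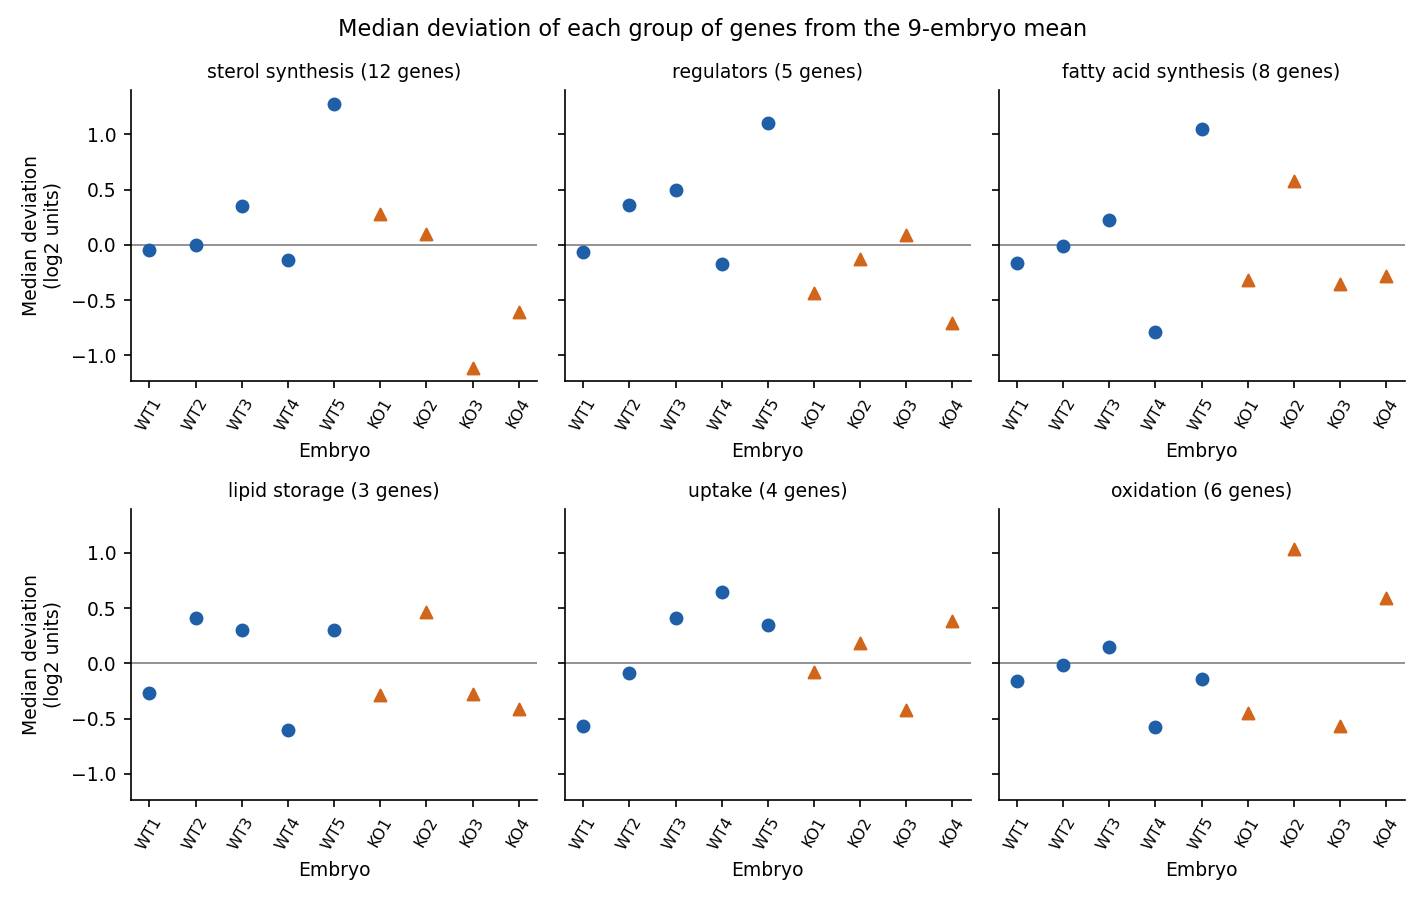
Median over the tested genes of each role of the deviation from the mean of the 9 embryos, in log2 units, for WT (circles) and KO (triangles) embryos. WT5 is highest for sterol synthesis at 1.28 and KO2 for oxidation at 1.03, and the genotypes overlap in all 6 panels.

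Further genes of the same routes were taken from a list of 98, of which 96 were analysed and 89 tested. None was called. At an unadjusted p under 0.05 there were 7 with lower values in KO, against 3.83% of all genes tested, and 1 with higher, against 2.07%. For 1 tested gene every KO embryo lay below every WT embryo, which held for 1.23% of all genes tested. The mean was lower in KO for 63 of 89, against 55.8% of all genes tested, with a median log2 fold change of −0.22. In sterol synthesis 8 of 10 were lower. *MSMO1*, the methyl sterol oxidase, was at 178, 253, 215, 103 and 525 TPM in WT and 177, 128, 37.5 and 106 TPM in KO (−1.17, adjusted p = 0.798), again highest in WT5 and lowest in KO3, and −0.72 without KO3.

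In the other routes 14 of 15 genes of fatty acid synthesis and 15 of 18 of lipid storage had lower means in KO, beside 55.8% of all genes. *ME1*, the cytosolic malic enzyme that supplies NADPH, was at 0.750, 0.924, 2.10, 3.78 and 1.93 TPM in WT1 to WT5 and 0, 0, 2.76 and 0.0204 TPM in KO1 to KO4 (−0.95, adjusted p = 0.836), with KO3 alone inside the WT values. It was −1.43 without KO3 (adjusted p = 0.23) and −2.83 with a pseudocount of 0.1 TPM. The acyltransferases that build the glycerolipid backbone gave −0.94 for *GPAT3* and −1.24 for *AGPAT1* (adjusted p = 0.764 and 0.590). *AGPAT1* was at 9.67, 6.04, 3.61, 5.40 and 7.37 TPM in WT and 1.42, 1.94, 4.05 and 1.35 TPM in KO, where KO3 alone overlapped WT3. *GPAT3* was at 55.5, 41.0, 43.2, 42.2 and 51.9 TPM in WT and 28.5, 44.3, 24.9 and 9.61 TPM in KO, where KO2 alone was among the WT embryos, and without KO4, the lowest, the difference was −0.54.

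Among further uptake genes 11 of 16 tested were lower in KO, again beside 55.8% of all genes. *ACSL5*, an acyl-CoA synthetase under the filter and not tested, was listed at 0.274, 0.0893, 0.385, 1.26 and 0.373 TPM in WT1 to WT5 and 0.0637, 0.0365, 0.0493 and 0 TPM in KO1 to KO4 without overlap. Of 19 further oxidation genes, 9 were lower and 10 higher. *SLC25A20*, the carnitine carrier of the inner membrane, was the 1 gene of the list with an unadjusted p under 0.05 and higher values in KO, at 25.0, 20.2, 24.5, 19.4 and 18.0 TPM in WT and 34.4, 53.2, 23.2 and 47.9 TPM in KO (0.80, SE 0.28, adjusted p = 0.708), with KO3 alone among the WT embryos. The further regulators, 6 of 11 lower, held none with an unadjusted p under 0.05.

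The comparison rests on 5 and 4 embryos, its power to detect a given difference was not estimated, and the intervals allow differences in both directions for most members. Each embryo gave 1 library, so variation between embryos and of library preparation cannot be separated. Oocyte donors, embryo sex, stage within D8 and culture batch were not analysed here, and the order of sequencing is not known. Transcript levels measure neither enzyme activity nor lipid content. Members were chosen by function and genes of a route share regulators, so counts of genes in 1 direction do not add up as independent results.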

How the data were processed

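RNA was sequenced from 9 single blastocysts, 1 library each. Per the submitters' processing notes FastQC, fastp and kallisto were used, with versions, annotation and genome build not given in the sources used here. The authors deposited TPM, which sum to the same total in each library. The labels and the study's methods name different RNA and library kits. Genotype was taken from the column names, and which embryo title each column belongs to is not given. A heading in the study's supplement reads as if the library here called KO4 was left out there, which its methods do not state. Tests used limma 3.58.1 in R 4.3.3 (lmFit, eBayes with trend) on log2(TPM + 1) for genes with a median above 0.1 TPM, with Benjamini-Hochberg adjustment, and the fit was tested on simulated data. The study's count model needs reads and was not run. Exact permutation tests compared 5 with 4 embryos on the same scale (scipy 1.17.1, two-sided, smallest p 0.0159). Plots used matplotlib 3.10.9.

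Values by embryo are given for *TEAD4*, members with an unadjusted p under 0.05 or no overlap, the most abundant member and that with the largest difference in each role, and the pairs *FADS1* and *FADS2*, *SLC27A2* and *SLC27A4*, *PPARG* and *PPARD*, and *SREBF1* and *SREBF2*. Apart from *FADS3*, further genes named singly had an unadjusted p under 0.05 or no overlap. Not all such genes are described, and markers were named after their values were seen. Members and lists were chosen with earlier results of these data known. All 40 members are RefSeq symbols of ARS-UCD2.0. The planned search for promoter motifs was not run, as no sequence was used here. Alternatives were median-of-ratios and quantile scaling, limma without trend, robust or with array weights, another filter or none, a smaller pseudocount, and leaving out embryos.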

Additional observations from a re-analysis of the deposited data

Results flagged for a closer look

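Single embryos far from the rest of their genotype were looked for in 63 sets of values, covering the named genes and the sums of each role, and 6 sets held one. The rule is meant to flag about 1 in 20 sets by chance, but these sets share embryos and genes. Whether 6 of 63 exceeds chance was not tested. WT5 stood above the other WT embryos for *HMGCS1*, at 266 TPM against 70.1 to 81.6 TPM, and for the summed sterol synthesis genes, at 1537 TPM against 620.1 to 786 TPM. KO1 stood above the other KO embryos for *FADS2*, at 41.4 TPM against 8.77 to 10.3 TPM. KO2 was high for *PLIN3*, at 339 TPM against 145 to 159 TPM. KO3 was high for *ME1*, at 2.76 TPM against 0 to 0.0204 TPM, and WT4 for *ACSL5*, at 1.26 TPM against 0.0893 to 0.385 TPM. The causes were not tested.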

How the results depend on the processing

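No paired analysis was possible because the titles number the embryos without repeats. No member was called in the main comparison. Over all genes, 3 were called, against 8 with a pseudocount of 0.1 TPM, 8 with a median above 1 TPM, 5 with median-of-ratios scaling, 6 with quantile normalization, 5 without trend and 6 with robust limma. Leaving out 1 embryo gave 0 to 10, the highest without KO3, and no call remained without WT3, WT4, KO1, KO2 or KO4, each left out alone. No filter gave 2 and array weights 4.

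The 4 members with an unadjusted p under 0.05 became 2 with median-of-ratios scaling, 2 without trend and 9 with array weights, and 1 to 6 with 1 embryo left out, the lowest without WT5. Tested members without overlap, 0 in all, were 1 with no filter, 0 to 3 with 1 embryo left out, the highest without KO3, and 4 without WT5 and KO3, chosen after seeing the data. In each setting without a KO embryo *SLC27A2*, without overlap in all 9, passed the filter and is counted. Fewer embryos also make non-overlap more frequent: without those 2 it held for 5.55% of all genes, against 2.03%.

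Scaling moved the balance of all genes. At an unadjusted p under 0.05, 559 were lower and 302 higher in KO, against 523 and 431 with median-of-ratios scaling and 471 and 533 with quantile normalization. Genes without overlap split into 179 lower and 117 higher, 171 and 168, and 146 and 221 in the same order.

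With 1 embryo left out, the median log2 fold change ran over −0.88 to −0.46 for sterol synthesis, −0.62 to −0.31 for regulators, −0.41 to 0.05 for fatty acid synthesis, −0.13 to 0.10 for lipid storage, −0.36 to 0.21 for uptake and 0.02 to 0.64 for oxidation, so fatty acid synthesis, storage and uptake changed sign. Without any 1 KO embryo *SLC27A2* passed the filter, so the uptake median was then over 5 genes instead of 4. With WT1 left out and 4 genes the uptake median was −0.26. It was also negative with a pseudocount of 0.1 TPM (−0.19) and with no filter (−0.03).

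Of 440 values for 26 named genes, 13 changed sign and none reached an adjusted p of 0.05. Without 1 embryo, *SREBF2* ran from −0.56 to 0.0107, *ELOVL6* from −0.44 to 0.0378, *PLIN3* from −0.36 to 0.0509, *DGAT1* from −0.13 to 0.39 and *FABP3* from −0.29 to 0.43. *PLIN3* also turned without WT2 (0.0211), KO1 (0.00751) and KO3 (0.00497), and *FABP3* without KO4 (−0.121). Array weights moved the role medians beyond their ranges with 1 embryo left out, to −1.10 for sterol synthesis, −0.79 for regulators, −0.57 for fatty acid synthesis and −0.16 for lipid storage. With them *INSIG1* was −1.72, *SREBF2* −0.79, *HMGCS1* −1.78, *SLC27A4* 0.23, *FADS2* −1.31, *DGAT1* −0.16 and *FABP3* −0.00844, and without WT5 and KO3 *SREBF2* was 0.20 and *PLIN3* 0.0712. The causes were not tested. TPM keeps no read counts, so the part of depth in each library was not tested.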
